A study of Mus musculus with 8 samples.

Results

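The 43 genes described here encode the enzymes of glycolysis, the transporters that move glucose in and lactate out, the kinases that switch off pyruvate dehydrogenase, the pyruvate dehydrogenase complex and the enzymes of the tricarboxylic acid (TCA) cycle. They were taken by gene symbol from a list, 43 of the 55291 symbols in the tables, and the rule names genes and uses no measured value, although the list was drawn up with earlier results of these data known. Of these, 24 belong to glycolysis and lactate handling, 4 are pyruvate dehydrogenase kinases, and 15 belong to the pyruvate dehydrogenase complex and the TCA cycle. The RNA came from collecting ducts of the outer medulla, dissected from C57BL/6J mice after 3 days on a high-salt diet (3% salt) or a normal-salt diet (0.3% salt), with 4 libraries per diet. The mice carried no named allele or transgene, and every library held 100 to 120 tubules of 1 mouse. The libraries are named HS2, HS3, HS4 and HS6 (high salt) and NS1, NS2, NS3 and NS6 (normal salt) after the table columns, and values are given in that order. Depth was 69.2 to 87.7 M estimated counts in the high-salt libraries and 64.8 to 94.2 M in the normal-salt libraries, and the spread between libraries is that between single mice.

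Glycolysis splits glucose into pyruvate in the cytosol and needs no oxygen. Pyruvate is then either reduced to lactate by lactate dehydrogenase and exported with a proton by monocarboxylate transporters, or oxidised to acetyl-CoA by pyruvate dehydrogenase and burned in the TCA cycle. The renal outer medulla works at low oxygen tension while it pumps salt, and collecting ducts are known to use glucose and to make lactate. The collecting duct holds principal cells, which carry out sodium and water transport, and intercalated cells, which are rich in mitochondria and proton pumps.

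Hypoxia-inducible factors (HIF) are known to drive many glycolytic genes through a short core, ACGTG or GCGTG. Both forms were searched on both strands in the 250 bases before each start in RefSeq's promoter table (GRCm38.p6), which held 42 of the 43 genes. A gene was counted if any of its windows held the form. ACGTG occurred in 18 of these 42 genes, against 18.5% of 27025 genes in the table. By window it occurred in 27 of 66, against 16.6% of 32851 in the table. It occurred in 12 of 24 glycolysis and lactate genes, 2 of 4 kinase genes and 4 of 14 pyruvate dehydrogenase and TCA genes. GCGTG occurred in 27 of 42 genes, against 30.9% of all, and in 35 of 66 windows, against 28.2% of all windows. The motif TNAAGGTCA, bound by oestrogen-related receptors, which are known regulators of mitochondrial genes, occurred in 0 of 42 genes, against 1.3% of all. Windows of 2 pairs of paralogues are shown, 1 per gene, although Ldha had 2. The liver and platelet 6-phosphofructokinases are shown because their shares of the family did not overlap between diets, and lactate dehydrogenase A and B because they form the enzyme that makes and uses lactate, with shares that overlapped. They lie at chr7:46845554-46845803 (plus strand, Ldha), chr6:142507958-142508207 (minus strand, Ldhb), chr10:78009808-78010057 (minus strand, Pfkl) and chr13:6648772-6649021 (minus strand, Pfkp), with capitals marking either form of the core on either strand.
Ldha: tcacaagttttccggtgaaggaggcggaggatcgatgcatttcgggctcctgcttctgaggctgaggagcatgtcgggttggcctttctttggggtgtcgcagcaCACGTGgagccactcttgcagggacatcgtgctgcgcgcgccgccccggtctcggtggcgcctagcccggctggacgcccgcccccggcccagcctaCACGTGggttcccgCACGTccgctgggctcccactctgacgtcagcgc
Ldhb: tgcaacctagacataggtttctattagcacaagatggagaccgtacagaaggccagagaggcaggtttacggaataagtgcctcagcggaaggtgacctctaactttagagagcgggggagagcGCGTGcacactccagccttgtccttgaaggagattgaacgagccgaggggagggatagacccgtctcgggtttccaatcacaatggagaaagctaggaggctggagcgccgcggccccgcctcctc
Pfkl: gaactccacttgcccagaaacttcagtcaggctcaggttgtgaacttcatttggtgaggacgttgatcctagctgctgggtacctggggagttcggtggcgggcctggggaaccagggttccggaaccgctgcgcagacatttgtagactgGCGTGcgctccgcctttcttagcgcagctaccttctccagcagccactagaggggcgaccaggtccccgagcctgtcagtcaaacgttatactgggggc
Pfkp: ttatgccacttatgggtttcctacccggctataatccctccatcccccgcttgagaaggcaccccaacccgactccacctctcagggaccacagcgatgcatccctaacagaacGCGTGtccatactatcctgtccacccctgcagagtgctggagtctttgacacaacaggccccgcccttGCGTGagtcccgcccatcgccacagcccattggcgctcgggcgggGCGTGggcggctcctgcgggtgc
The Ldha window held ACGTG 5 times over the 2 strands, since each CACGTG reads the same on both, and held no GCGTG. The Ldhb window held GCGTG 1 time, the Pfkl window 1 time and the Pfkp window 3 times, and none of these 3 held ACGTG. A match is a run of letters and not a measured binding site.

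Most members were abundant. In TPM, a level scaled to a common library total and to transcript length, 3 members averaged at least 1000 over the 8 libraries, 27 lay between 100 and 1000, 7 between 10 and 100, 4 between 1 and 10, and 2 below 1. Together the 43 genes made up 1.8% to 1.99% of all TPM in the high-salt libraries and 1.71% to 1.97% in the normal-salt libraries, so the summed levels overlapped.

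**Figure D1:**
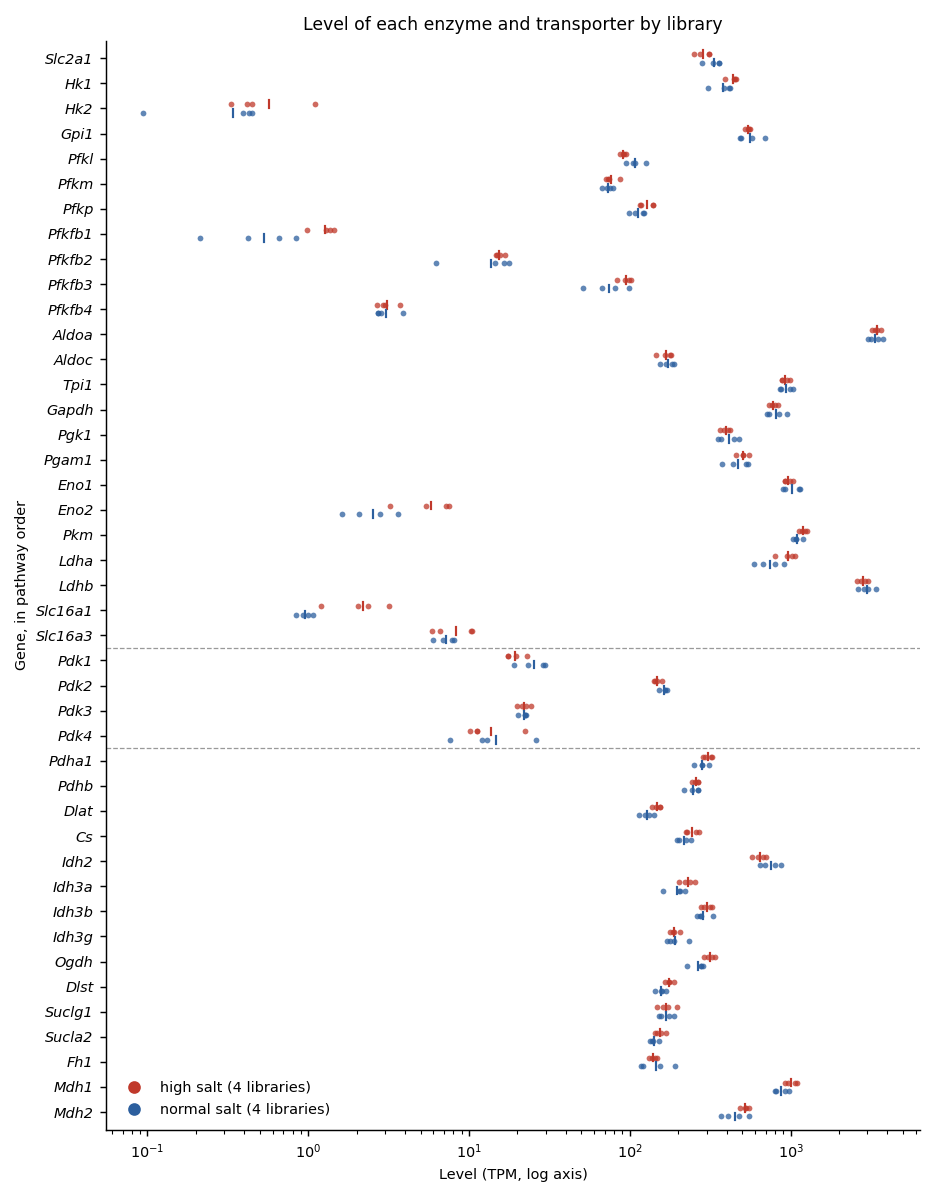
Level of each of the 43 genes in TPM (log axis), in pathway order, with 1 point per library and a vertical tick at the mean of each diet (high salt above normal salt in each row, 4 libraries each). Aldoa and Ldhb stand highest, whereas Hk2 and Pfkfb1 average below 1 TPM over all 8 libraries, and for most genes the points of the 2 diets overlap.

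High salt was set against normal salt for 13401 genes with limma on log2(CPM + 1), where CPM is the count scaled to a common library total, after keeping genes with at least 1 CPM in at least 4 libraries. Fold changes below are on this scale, high salt over normal salt, and it understates the change of low genes. Of the 13401 genes 11 (0.0821%) passed a Benjamini-Hochberg adjusted p under 0.05. Of the 43 members 42 were tested, and 0 passed. At an unadjusted p under 0.05, 6 of the 42 (14.3%) stood out, against 1383 genes (10.3%) in the whole table. Pfkfb3, Eno2 and Slc16a1 had the higher mean in high salt, where 5.95% of all genes reached that level, and Pfkl, Pdk1 and Pdk2 had the lower mean, where 4.37% did. The log2 fold change was positive for 26 members and negative for 16, with a median of 0.07, against 0.01 over all genes tested. Among all genes tested 7076 were positive and 6325 negative. In CPM, both diets kept to separate ranges for 3 of the 42 tested members (7.14%), Pfkl, Pdk2 and Ogdh, against 6.4% of all genes tested. The shares at an unadjusted p under 0.05 and with separate ranges are both near those of the whole table.

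**Figure D2:**
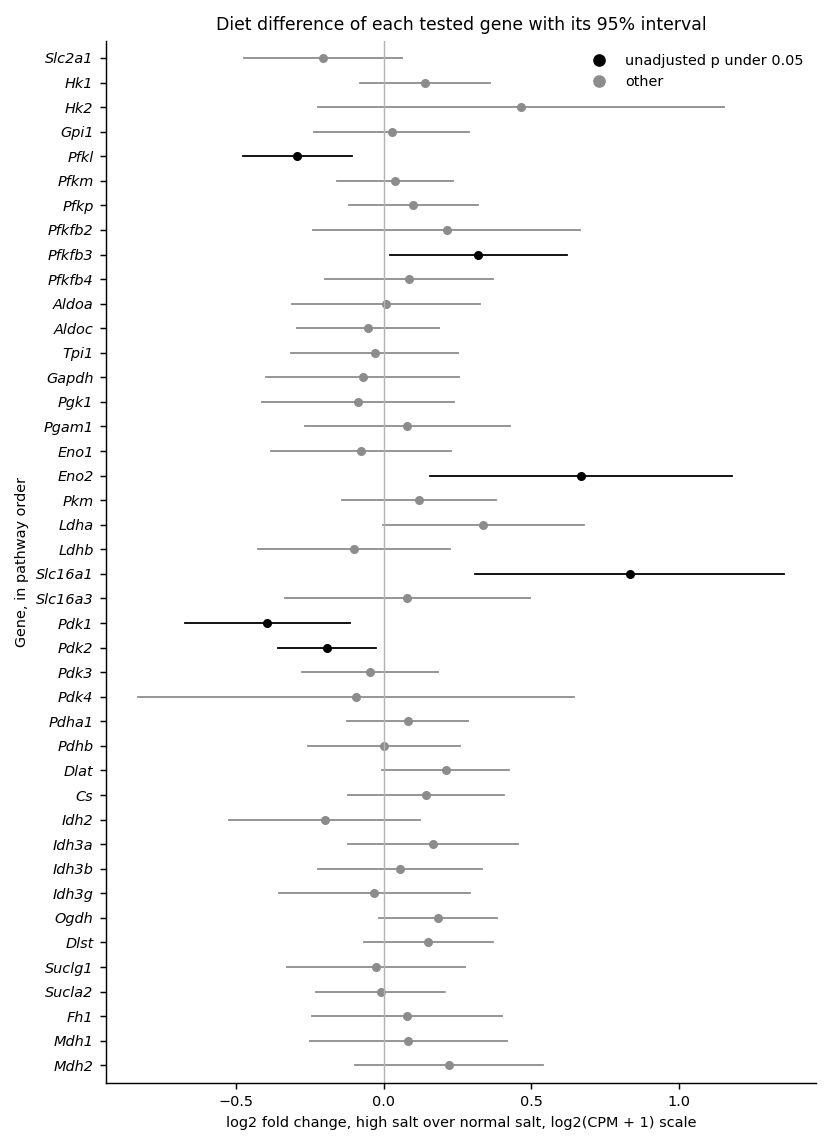
Log2 fold change of high salt over normal salt on the log2(CPM + 1) scale for the 42 tested members, with the 95% interval from limma. Black marks the 6 members with an unadjusted p under 0.05, of which Slc16a1 (0.83) and Eno2 (0.67) lie farthest to the right and Pdk1 (-0.39) farthest to the left, and none passed the adjusted threshold.

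Slc2a1, the GLUT1 glucose transporter, had 287 ± 29.4 TPM in high salt and 333 ± 36.6 TPM in normal salt (SD, n = 4 each). Between diets its log2 difference was -0.20 (95% interval -0.473 to 0.063, adjusted p = 0.61). Hk1, the hexokinase bound to mitochondria that traps glucose as glucose-6-phosphate, had 435.5 ± 31 TPM in high salt and 380.6 ± 52.1 TPM in normal salt. It made up at least 99.7% of the summed TPM of Hk1 and Hk2 in every library. Hk2, the insulin- and hypoxia-responsive hexokinase, had 1.55, 1.46, 3.92 and 1.16 CPM in the high-salt libraries, against 1.73, 1.53, 1.02 and 0.317 CPM in the normal-salt libraries. HS4 was the high value and NS6 the low one, and the diets overlapped. The counts behind these were few, from 25 estimated counts in NS6 to 289 in HS4. Gpi1, the glucose-6-phosphate isomerase, averaged 542.5 ± 18.3 TPM in high salt and 561 ± 95.3 TPM in normal salt.

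6-Phosphofructokinase, which commits sugar to glycolysis, is built from liver (Pfkl), muscle (Pfkm) and platelet (Pfkp) subunits. Pfkl (chr10:77986947-78010083, minus strand, mm10, whole gene in GENCODE M21, as for all genes placed below) had 209, 203, 192 and 194.5 CPM in the high-salt libraries, against 244, 243, 269 and 224 CPM in the normal-salt libraries. Every high-salt library lay below every normal-salt library in CPM, but in TPM HS2 (95.2) lay above NS1 (94.1). For Pfkl the log2 fold change was -0.29 (SE 0.083, unadjusted p = 0.00527, adjusted p = 0.216). In limma on TPM it was -0.24 (unadjusted p = 0.0384, adjusted p = 0.523). Pfkp had 128 ± 12.9 TPM in high salt and 112.5 ± 11.3 TPM in normal salt, and its log2 fold change was 0.10 (adjusted p = 0.779). Pfkm had 76.2 ± 7.04 TPM in high salt and 73.3 ± 4.87 TPM in normal salt. The subunits' shares of the summed TPM also differed. Pfkl made up 33.4, 30.3, 32.4 and 27.6% in the high-salt libraries, against 35.0, 35.4, 38.9 and 37.8% in the normal-salt libraries. Pfkp made up 40.8, 45.8, 42.0 and 44.6% in the high-salt libraries, against 40.1, 40.1, 37.0 and 35.9% in the normal-salt libraries. Neither share overlapped between diets, and the Pfkm share did, at 23.9 to 27.8% in high salt and 24.1 to 26.3% in normal salt. The ratio of Pfkl to Pfkp was 0.62 to 0.818 in high salt and 0.872 to 1.05 in normal salt. These shares are descriptions without a test, and Pfkp overlaps the gene Pitrm1, which reached 62.6 CPM, while the strand setting of the counting is not given in the sources used here.

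**Figure D3:**
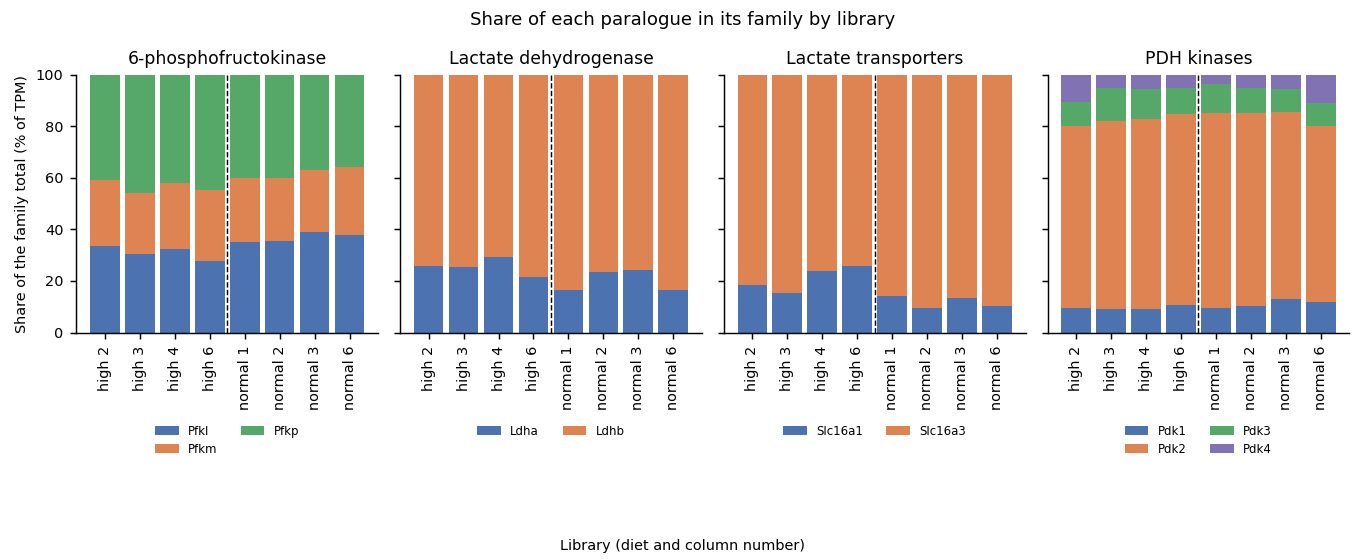
Share of each paralogue in the summed TPM of its family (%), 1 stacked bar per library, with high-salt bars left of the dashed line and normal-salt bars right of it. The Pfkl share lies at 27.6 to 33.4% in high salt and 35.0 to 38.9% in normal salt, the Slc16a1 share at 15.5 to 25.7% in high salt and 9.67 to 14.2% in normal salt, whereas the Ldha and Pdk shares overlap between diets.

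The PFKFB enzymes make and break fructose 2,6-bisphosphate, the strongest activator of phosphofructokinase. Pfkfb3 (chr2:11471433-11554077, minus strand), the isoform that mainly makes it, dominated this family with 75.1 to 84.4% of the summed TPM over all libraries. It had 224, 259, 278 and 265 CPM in the high-salt libraries, against 167, 184, 219 and 258 CPM in the normal-salt libraries. NS6 was the highest of its diet and lay above HS2, so the diets overlapped. The log2 fold change was 0.32 (SE 0.135, unadjusted p = 0.0377, adjusted p = 0.446), and it ranged from 0.22 to 0.43 when 1 library was left out. The unadjusted p was above 0.05 without HS3, HS4, HS6, NS1 or NS2, and with no filter on low values. Pfkfb2, the heart isoform, had 15.5 ± 0.938 TPM in high salt and 13.8 ± 5.16 TPM in normal salt, where NS1 was the low value at 6.26 TPM. Pfkfb4, the testis isoform, had 3.07 ± 0.443 TPM in high salt and 3.03 ± 0.564 TPM in normal salt. Pfkfb1, the liver isoform, was the member left out of the test by the filter. It had 0.946, 0.719, 1.03 and 1.3 CPM in the high-salt libraries, against 0.494, 0.691, 0.648 and 0.203 CPM in the normal-salt libraries. These values did not overlap, and none exceeded 1.3 CPM.

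The later steps of glycolysis held the most abundant members, and none reached an unadjusted p under 0.05 except the minor enolase Eno2. Aldoa, the main aldolase, had 3224, 3675, 3368 and 3448 TPM in the high-salt libraries, against 3479, 3150, 3778 and 3011 TPM in the normal-salt libraries. The normal-salt libraries held both the highest and the lowest value, and the log2 fold change was 0.01 (SE 0.144, adjusted p = 0.991). Aldoa made up 94.5 to 96.0% of the summed TPM of Aldoa and Aldoc in all libraries. Aldoc, the brain-type aldolase, had 167 ± 16.4 TPM in high salt and 173.5 ± 15.5 TPM in normal salt.

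Tpi1, triose-phosphate isomerase, had 884, 997, 883 and 950.4 TPM in the high-salt libraries, against 987, 876, 1028 and 859.7 TPM in the normal-salt libraries. The diets overlapped throughout (log2 fold change -0.03, SE 0.128, adjusted p = 0.96). Pkm, the pyruvate kinase of non-liver tissues, had 1128, 1266, 1227 and 1171 TPM in the high-salt libraries, against 1086, 1075, 1190.0 and 1028 TPM in the normal-salt libraries. In TPM NS3 alone of the normal-salt libraries lay above the lowest high-salt values. In CPM both NS1 (1775) and NS3 (1704) lay above the lowest high-salt value (1590). For Pkm the log2 fold change was 0.12 (SE 0.118, adjusted p = 0.782), or 0.06 without NS6.

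Eno1, the main enolase, had 922, 1040.0, 923 and 985 TPM in the high-salt libraries, against 1139, 901, 1125 and 918 TPM in the normal-salt libraries. Between diets the log2 difference was -0.08 (SE 0.137, adjusted p = 0.896), with NS1 and NS3 above every high-salt library. Eno2, the neuronal enolase, made up under 1% of the summed TPM of Eno1 and Eno2. It had 5.18, 5.34, 8.58 and 6.24 CPM in the high-salt libraries, against 3.07, 5.83, 3.53 and 2.38 CPM in the normal-salt libraries. NS2 lay within the high-salt range, and the other 3 normal-salt libraries lay below it. The log2 fold change of Eno2 (chr6:124760053-124769673, minus strand) was 0.67 (SE 0.232, unadjusted p = 0.0154, adjusted p = 0.336).

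Levels of 4 of these enzymes also depend on how reads were shared with near-identical gene copies. Transcripts of at least 95% identity over at least 200 bases were counted in the GENCODE M21 annotation for every member. Gapdh, glyceraldehyde-3-phosphate dehydrogenase, had 76 such copies, and 75 of them were in the table. The copies held 76.0 to 82.9% of the summed CPM of Gapdh and its copies. Gapdh alone had 251, 295, 276 and 346 CPM in the high-salt libraries, against 375.5, 271, 246 and 343 CPM in the normal-salt libraries. With its copies the sum was 1345, 1561, 1462 and 1561 CPM in the high-salt libraries, against 1878, 1316, 1437 and 1431 CPM in the normal-salt libraries. Both ways the diets overlapped, and NS1 was the highest library. Copies held 31.7 to 40.0% for Pgk1 (phosphoglycerate kinase, 3 copies in the table), 13.9 to 18.9% for Eno1 and 6.45 to 12.4% for Pgam1 (phosphoglycerate mutase). The values of these 4 genes are therefore uncertain in level.

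**Figure D4:**
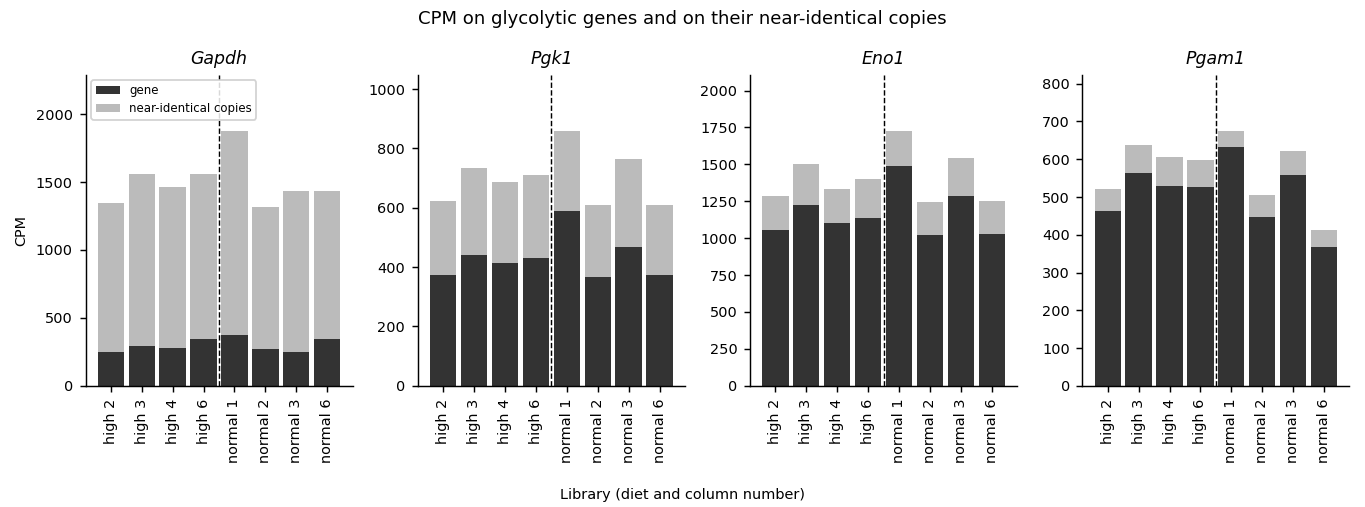
CPM assigned to 4 glycolytic genes (dark) and to their near-identical copies (light) in each library, high-salt bars left of the dashed line and normal-salt bars right of it. For Gapdh the copies hold 76.0 to 82.9% of the sum, for Pgam1 6.45 to 12.4%, and NS1 has the highest sum for all 4 genes.

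Lactate dehydrogenase is a tetramer of A subunits (Ldha), which favour making lactate, and B subunits (Ldhb), which favour its use. Ldhb was the main form in every library. It had 2738, 3023, 2598 and 2900.0 TPM in the high-salt libraries, against 3398, 2623, 2867 and 3045 TPM in the normal-salt libraries. The diets overlapped (log2 fold change -0.10, SE 0.146, adjusted p = 0.862), with NS1 the highest. Ldha (chr7:46841475-46855627, plus strand) had 831, 901, 953 and 705 CPM in the high-salt libraries, against 708, 691, 804 and 501 CPM in the normal-salt libraries. HS6 lay inside the normal-salt range, the other 3 high-salt libraries lay above it, and NS6 was the lowest of all. For Ldha the log2 fold change was 0.34 (SE 0.153, unadjusted p = 0.0507, adjusted p = 0.487). It was 0.20 without NS6 (unadjusted p = 0.142), and 0.22 (unadjusted p = 0.2) with the thick ascending limb markers described below as a covariate. In limma it was larger on TPM (0.38, unadjusted p = 0.0218), without HS6 (0.42, unadjusted p = 0.0248) and without NS3 (0.43, unadjusted p = 0.0235). The adjusted p was at least 0.2215 in every alternative. Ldha made up 25.9, 25.3, 29.2 and 21.7% of the summed TPM of the pair in the high-salt libraries, against 16.6, 23.3, 24.1 and 16.4% in the normal-salt libraries. These shares overlapped, and the ratio of Ldhb to Ldha was 2.43 to 3.62 in high salt and 3.15 to 5.11 in normal salt.

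Lactate leaves cells through the proton-linked transporters MCT1 (Slc16a1) and MCT4 (Slc16a3), and both transcripts were low. Slc16a1 (chr3:104638668-104658462, plus strand) had 5.79, 2.99, 8.05 and 5.06 CPM in the high-salt libraries, against 3.01, 2.06, 2.7 and 2.26 CPM in the normal-salt libraries. HS3 lay just below NS1, and the other 3 high-salt libraries lay above every normal-salt library. The log2 fold change was 0.83 (SE 0.236, unadjusted p = 0.00501, adjusted p = 0.216), the largest among the tested members. In TPM the levels were 2.2 ± 0.826 in high salt and 0.956 ± 0.0957 in normal salt (n = 4 each). Slc16a3 had 8.29 ± 2.41 TPM in high salt and 7.18 ± 0.945 TPM in normal salt, with HS2 and HS4 high and HS3 and HS6 low (log2 fold change 0.08, adjusted p = 0.923). Slc16a1 therefore made up 15.5 to 25.7% of the pair in high salt and 9.67 to 14.2% in normal salt, with no overlap. Slc16a7 (MCT2), a transporter of the same family with high affinity that was no member, stood far above both at 117 ± 10.8 TPM in high salt and 101 ± 9.91 TPM in normal salt. Bsg, the chaperone of MCT1 and MCT4, had 646 ± 35.8 TPM in high salt and 685.5 ± 67.9 TPM in normal salt.

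Pyruvate dehydrogenase kinases phosphorylate the E1 subunit of pyruvate dehydrogenase and so hold pyruvate out of the TCA cycle. All 4 kinases had a negative log2 fold change, with a median of -0.14, against 6325 negative among all 13401 genes tested. Pdk2 was the main form at 68.0 to 75.4% of the summed TPM. Pdk2 (chr11:95026258-95041354, minus strand) had 189.0, 189, 191 and 199 CPM in the high-salt libraries, against 232, 217.5, 222 and 206 CPM in the normal-salt libraries. Every high-salt library lay below every normal-salt library in CPM, by a small margin, but in TPM HS6 (158.6) lay above NS1 (151.1). For Pdk2 the log2 fold change was -0.19 (SE 0.076, unadjusted p = 0.0284, adjusted p = 0.414), and on TPM the unadjusted p was 0.111. Pdk1 (chr2:71873224-71903858, plus strand), the hypoxia-induced kinase, had 52.9, 45.1, 44.5 and 58.4 CPM in the high-salt libraries, against 59.4, 57.3, 77.1 and 71.6 CPM in the normal-salt libraries. HS6 overlapped NS2, and HS3 and HS4 lay lowest. Its log2 fold change was -0.39 (SE 0.127, unadjusted p = 0.0104, adjusted p = 0.29). Pdk3 had 22.1 ± 1.93 TPM in high salt and 21.9 ± 1.07 TPM in normal salt. Pdk4, the kinase induced by fasting and glucocorticoids, had 22.2, 10.1, 11.2 and 11.2 TPM in the high-salt libraries, against 7.62, 12.03, 12.9 and 26.3 TPM in the normal-salt libraries, so 1 library of each diet (HS2 and NS6) stood above the rest.

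The pyruvate dehydrogenase complex and TCA cycle had no member at an unadjusted p under 0.05 on log2(CPM + 1) with all 8 libraries. On TPM, Dlat and Ogdh reached it, where 9.02% of all genes did. Without NS1, Dlat, Idh3a, Idh3b, Dlst and Mdh2 reached it, where 13.5% of all genes did. The log2 fold change was positive for 11 of 15, with a median of 0.08, against 7076 positive among all 13401 genes tested. The 15 moved together between libraries, with 13 above their own mean in NS1 and 0 in NS2 or NS6. The 95% intervals of all 15 lay between -0.52 and 0.54. Pdha1 and Pdhb, the E1 subunits, had 306 ± 19.4 and 257 ± 10.8 TPM in high salt, against 281 ± 25.8 and 249 ± 23.7 TPM in normal salt. Dlat, the E2 subunit that carries acetyl groups, had 148 ± 7.7 TPM in high salt and 128 ± 11.2 TPM in normal salt (log2 fold change 0.21, unadjusted p = 0.0553, adjusted p = 0.497). Cs, citrate synthase, which starts the cycle, had 244.5 ± 21.8 TPM in high salt and 216 ± 19.9 TPM in normal salt.

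Ogdh (chr11:6291633-6356642, plus strand), the E1 subunit of 2-oxoglutarate dehydrogenase, was the 1 member of the complex and the cycle whose diets did not overlap. It had 738, 832, 719 and 803 CPM in the high-salt libraries, against 663.5, 665, 711 and 678 CPM in the normal-salt libraries. Every high-salt library lay above every normal-salt library, with HS4 only just above NS3. For Ogdh the log2 fold change was 0.18 (SE 0.09, unadjusted p = 0.0675, adjusted p = 0.525), and on TPM it was 0.24 (unadjusted p = 0.0328, adjusted p = 0.507). Mdh1, the cytosolic malate dehydrogenase, had 922, 1063, 964 and 1095 TPM in the high-salt libraries, against 919, 809, 976 and 804 TPM in the normal-salt libraries. In TPM NS3 and NS1 lay within or near the high-salt range, but in CPM NS1 (1120) lay above every high-salt library (803 to 957). For Mdh1 the log2 fold change was 0.08 (SE 0.151, adjusted p = 0.896), and in limma on TPM it was 0.21 (unadjusted p = 0.0544, adjusted p = 0.561). Mdh2, the mitochondrial form, had 521.5 ± 29 TPM in high salt and 451 ± 79.3 TPM in normal salt. Idh2, the NADP-linked isocitrate dehydrogenase, had 647 ± 57 TPM in high salt and 752 ± 106 TPM in normal salt. Within the NAD-linked isocitrate dehydrogenase, Idh3b was the largest share at 40.6 to 45.3% of the summed TPM, and the Idh3a, Idh3b and Idh3g subunits averaged 229 ± 22.8, 302 ± 21.5 and 189.7 ± 11.3 TPM in high salt, against 197 ± 25.5, 285 ± 28.7 and 192 ± 28.7 TPM in normal salt. The remaining members, Dlst (E2 of 2-oxoglutarate dehydrogenase), the succinyl-CoA ligase subunits Suclg1 and Sucla2, and fumarase Fh1, averaged between 140.2 and 176 TPM in high salt and between 141 and 168 TPM in normal salt.

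High and low values of many members lay in the same libraries. NS1 was the highest library for 20 of the 42 tested members and NS6 the lowest for 21. The median deviation from the gene's own mean, on the log2(CPM + 1) scale, was -0.06, 0.07, -0.02 and 0.06 in the high-salt libraries, against 0.17, -0.12, 0.04 and -0.20 in the normal-salt libraries. Both ends of the range were therefore normal-salt libraries. Over all 13401 genes tested the median deviation was -0.01 in NS1 and 0.004 in NS6. How many of all genes were highest in NS1 or lowest in NS6 was not counted. NS1 also had the highest summed TPM of fibroblast and pericyte markers (116, against at most 56.6 in the other 7 libraries), macrophage markers (91.2, against at most 58.9) and erythrocyte markers (37.9, against at most 6.43). The part of these markers in the members' values was not tested. Without NS1, 11 members reached an unadjusted p under 0.05, where 13.5% of all genes did, and 0 passed the adjusted threshold: Pfkl, Pdk1 and Pdk2 with a lower mean in high salt, and Eno2, Ldha, Slc16a1, Dlat, Idh3a, Idh3b, Dlst and Mdh2 with a higher one.

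**Figure D5:**
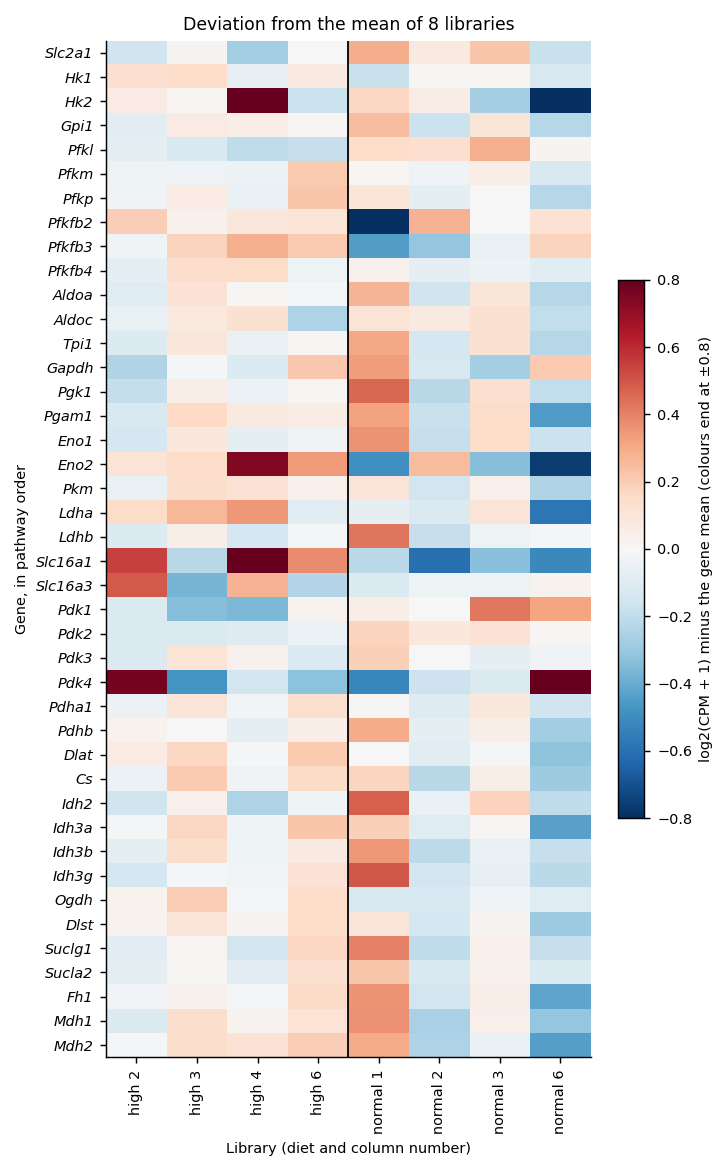
Deviation of each tested member in each library from the gene's mean over 8 libraries, on the log2(CPM + 1) scale (red above, blue below, colours ending at 0.8), with high-salt columns left of the line and normal-salt columns right of it. Most rows are red in NS1 (median 0.17) and blue in NS6 (median -0.20), whereas the high-salt columns have medians between -0.06 and 0.07.

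Markers of the duct's own cells and of neighbouring segments differed between libraries too. The summed TPM of 10 principal cell markers was 30750 to 36300 in high salt and 21610 to 27540 in normal salt, with 3 markers higher and 1 lower at an unadjusted p under 0.05. The sum of 12 intercalated cell markers was 6724 to 7942 in high salt and 6884 to 8971 in normal salt, with 5 of the 12 lower at that level. Markers of dividing cells summed to between 139.7 and 189.6 TPM in high salt and between 81.6 and 127 TPM in normal salt, with 9 of 10 higher at that level. Over all genes tested, 5.95% were higher and 4.37% lower at that level. For the thick ascending limb, an adjacent salt-reabsorbing segment, 12 markers summed to 294, 305, 511 and 1848 TPM in the high-salt libraries, against 1305, 736.5, 578 and 1219 TPM in the normal-salt libraries. The covariate in limma was the mean log2(CPM + 1) of the 11 tested markers. With it 4 members (Pfkl, Eno2, Slc16a1 and Pdk1) kept an unadjusted p under 0.05, where 7.955% of all genes did. Pfkfb3 then had a log2 fold change of 0.35 (SE 0.159, unadjusted p = 0.0519) and Pdk2 of -0.17 (SE 0.0923, unadjusted p = 0.0962), against 0.32 and -0.19 without the covariate. Of the 10 proximal tubule markers 3 were tested, Slc5a12 was at 0 in all libraries, and the sum was 17.4 to 319 TPM in high salt and 8.57 to 228 TPM in normal salt. The part of these cell types in the members' values was not tested. In a pool of tubules, fewer cells of a type and less RNA per cell cannot be told apart.

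Lists of other genes of the pathway were counted in the same fit, and 0 of their genes passed the adjusted threshold. Of 8 tested other glucose carriers and hexokinases and 8 tested pentose phosphate genes, 0 reached an unadjusted p under 0.05 in either direction. Of 9 tested other TCA genes, 0 did, and among the abundant ones was the succinate dehydrogenase subunit Sdha (558 ± 32.3 TPM in high salt and 489 ± 26.1 TPM in normal salt). In the lists that follow, higher and lower mean at an unadjusted p under 0.05 in high salt, as 5.95% and 4.37% of all genes tested were. Of 10 other glycolysis genes, 1 was higher, Tigar, a phosphatase that breaks down fructose 2,6-bisphosphate (log2 fold change 0.32, adjusted p = 0.33). Of 8 other genes of lactate and pyruvate handling, 1 was higher, the D-lactate dehydrogenase Ldhd (0.26, adjusted p = 0.331). Of 5 other genes of pyruvate dehydrogenase, 1 was higher, the phosphatase Pdp2 (0.40, adjusted p = 0.429), which reverses the action of the kinases. Of 14 genes that feed the cycle, 1 was higher, malic enzyme Me2 (0.42, adjusted p = 0.202).

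Of 6 tested genes of gluconeogenesis, 1 was higher and 1 lower at an unadjusted p under 0.05, against 5.95% and 4.37% of all genes tested. Pcx, pyruvate carboxylase, which makes oxaloacetate from pyruvate, had 51.4, 53.1, 61.9 and 53.2 TPM in the high-salt libraries, against 23.7, 45.8, 38.9 and 25.8 TPM in the normal-salt libraries. Every high-salt library was above every normal-salt library, and NS1 and NS6 were lowest (log2 fold change 0.73, SE 0.177, unadjusted p = 0.00173, adjusted p = 0.159). G6pc, the glucose-6-phosphatase, had 0.526, 0.41, 0.3 and 0.253 TPM in the high-salt libraries, against 0.874, 1.05, 1.06 and 1.38 TPM in the normal-salt libraries. The diets did not overlap, at levels near or under 1 TPM (log2 fold change -0.76, SE 0.182, unadjusted p = 0.0017, adjusted p = 0.159).

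Among 18 genes for regulators of the pathway, 2 were higher at an unadjusted p under 0.05 and 0 lower, against 5.95% and 4.37% of all genes tested. Egln3, a prolyl hydroxylase that marks HIF for destruction and is itself a HIF target, had 18.7, 14.7, 26.4 and 16.5 TPM in the high-salt libraries, against 7.7, 9.8, 10.8 and 7.24 TPM in the normal-salt libraries. All 4 high-salt libraries lay above the normal-salt libraries (log2 fold change 1.01, SE 0.187, unadjusted p = 0.000243, adjusted p = 0.0815). Myc, a transcription factor that activates glycolytic genes, had 12.4, 11.6, 13.9 and 8.67 TPM in the high-salt libraries, against 2.86, 10.2, 3.94 and 6.34 TPM in the normal-salt libraries. NS2 overlapped the high-salt range (log2 fold change 1.05, SE 0.287, unadjusted p = 0.00386, adjusted p = 0.202). Hif1a, the oxygen-regulated HIF subunit, had 199.6 ± 18.9 TPM in high salt and 199.4 ± 42.1 TPM in normal salt, and Txnip, a brake on glucose uptake, had 1575 ± 174 TPM in high salt and 1675 ± 408.5 TPM in normal salt.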

How the data were processed

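RNA from 8 pools of dissected tubules, each of 1 mouse, was sequenced after stranded mRNA library preparation, per the labels' protocols. FastQC and Trimmomatic were used and the build was mm10, per the submitters' processing notes. Aligner, counting program, strand setting and annotation: not given in the sources used here. Deposited by the authors were log2 CPM values with a common floor of -5.29 and linear TPM values, each for 55291 symbols. Here 2 was raised to the power of each log2 value and the floor was subtracted, which gave linear CPM. The steps between low CPM values gave library totals of 64.8 to 94.2 M estimated counts, and a single count then equals 0.0106 to 0.0154 CPM. These were not nearly all whole, and no count model was used. Genes with at least 1 CPM in at least 4 libraries were compared as log2(CPM + 1) by limma 3.58.1 under R 4.3.3 (eBayes with a trend, two-sided, Benjamini-Hochberg adjustment over all 13401 genes, called at an adjusted p under 0.05). The script was tested on simulated data. Near-identical copies were found with minimap2 2.31. Columns carried the diet but could not be tied to single sample titles, so a library's name joins its diet and its column's number. The members, the lists and the rule for named genes were chosen with earlier results of these data known. The rule gave full values for members with an adjusted or unadjusted p under 0.05, with no overlap between diets, or among the 6 of highest mean TPM, gave families as means and shares, and named up to 5 genes of each other list. Ldha, Hk2, Pdk4, Gapdh and Slc16a7 go beyond it, after their values were seen. Single results for 2 genes of the other lists are not reported here. Alternatives covered the pseudocount, the filter, scaling, TPM, the moderation, library weights, a thick ascending limb covariate, the replicate block and leaving out each library.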

Additional observations from a re-analysis of the deposited data

Results flagged for a closer look

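In 86 groups of 4 libraries (43 genes in each diet) the highest or lowest CPM was compared with the rest, and chance flags about 1 in 20 such groups. There were 4 single libraries that stood apart from the other 3 of their diet. Hk2 had 3.92 CPM in HS4, against 1.16 to 1.55 CPM in the other high-salt libraries. Pfkm had 157 CPM in HS6, against 131 to 132 CPM in the other high-salt libraries. Aldoc had 163 CPM in NS6, against 196 to 203 CPM in the other normal-salt libraries. Idh3g had 191 CPM in NS1, against 116 to 129 CPM in the other normal-salt libraries.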

How the results depend on the processing

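No member passed the adjusted threshold with limma under any alternative, and the lowest adjusted p of any member was 0.0767. Over the alternatives, the number of all genes called, 11 as reported, was 0 with no filter on low values (where 1933 genes had an unadjusted p under 0.05), 5 on TPM, 22 with robust moderation, 129 with library weights, 38 with the thick ascending limb covariate, 37 with a replicate block and 23 with the shared numbers but no block, an alternative chosen after seeing the data. Leaving out 1 library at a time gave 0 to 49 called genes, with 49 without NS1 and 0 without HS4 or NS3. At an unadjusted p under 0.05 there were 6 members as reported, where 10.32% of all genes reached that level. With the replicate block there were 11 members, where 13.21% of all genes did. With the shared numbers and no block there were 10 members, where 10.52% of all genes did. When 1 library was left out there were 4 to 11 members (11 without NS1). The share of all genes then ranged from 6.85% without HS4 to 13.46% without NS1. The block used the 6 libraries with shared numbers, without HS4 and NS1. With it, in limma, Pfkl, Slc16a1 and Pdk1 kept an unadjusted p under 0.05. Pfkfb3 (log2 fold change 0.184, unadjusted p = 0.0531), Eno2 (0.479, unadjusted p = 0.0914) and Pdk2 (-0.162, unadjusted p = 0.0672) did not in limma, and Ldha, Dlat, Cs, Idh3a, Idh3b, Ogdh (0.207, unadjusted p = 0.0366), Dlst and Mdh2 were added. Without the block the same libraries gave those additions except Ldha, and an unadjusted p of 0.182 for Pfkfb3. With 1 library left out, Pfkl, Slc16a1 and Pdk1 kept an unadjusted p under 0.05 each time, Eno2 lost it without HS4, and Pdk2 without HS2, HS3, HS4 or NS3. The shared column numbers were checked as pairs: deviations of same-numbered libraries correlated at 0.208, 0.287 and 0.00201 for columns 2, 3 and 6. Among the normal-salt libraries, HS2 correlated most with NS2 and HS3 with NS3, but HS6 correlated most with NS1. No label says that a shared number pairs mice, so the reported fit used no pairs. Of 339 pairs of a named fold change and an alternative, 320 kept direction and call and 19 turned direction. With the replicate block, or the same libraries without it, the log2 fold change was 0.0791 for Tpi1, 0.0445 for Eno1, 0.0574 for Ldhb and -0.0206 for Slc16a3, and Slc16a3 was -0.0125 with the covariate. When 1 library was left out, it ranged from -0.0666 to 0.101 for Aldoa, from -0.112 to 0.0674 for Tpi1, from -0.149 to 0.0321 for Eno1, from -0.178 to 0.0276 for Ldhb, from -0.00754 to 0.22 for Mdh1 and from -0.0677 to 0.218 for Slc16a3. The cause of these turns was not tested. On TPM Pdk1 (unadjusted p = 0.0509), Pdk2 (0.111) and Pfkfb3 (0.0636) no longer had an unadjusted p under 0.05. Ldha, Dlat and Ogdh gained it there, where 9.02% of all genes reached that level. Hk2 rested on 25 to 289 estimated counts per library.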

Other observations

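The TPM a gene received per CPM was lower in NS1 than in the other 7 libraries for 38 of the 43 members, with a median of 0.852 of the gene's own median over libraries, whereas NS6 had the highest value for 28 members (median 1.04). This was computed for the members only, so whether other genes shared it was not tested. Levels in TPM and CPM therefore placed NS1 differently: Ogdh had 227 TPM and 663.5 CPM in NS1, against 275.5 TPM and 665 CPM in NS2.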
